A study of Rattus norvegicus with 421 samples.

Results

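Dimethylnitrosamine (DMN) was given by gavage to male rats, and the liver was profiled after 3 and after 7 days. All arrays whose titles begin with DMN were taken, 3 animals per day, which makes 6 of the 421 arrays of the series. They were set against the 3 corn oil vehicle arrays of the same day labelled CO_1C. The animals were Wistar rats of the Hanover line, Crl:WI[Gl/BRL/Han]IGS BR, aged 8 to 10 weeks, with 5 rats per group. Each day they received 4 mg/kg DMN in corn oil or corn oil alone at 5 ml/kg. Livers of 3 of the 5 animals of each treated group, chosen for some change on histopathology, were hybridised to Affymetrix RAE230A arrays. How the vehicle animals were chosen is not stated, and what the choice adds to the difference between DMN and vehicle was not tested. The DMN values describe chosen animals. Every p-value measures only the spread between animals within groups, pooled over all 421 arrays of the series. Each array is the whole liver sample of 1 animal, with all its cell types together. Values are the deposited log2 values, a change is the mean of the DMN arrays minus the mean of the vehicle arrays ± the standard error (SE) of the fit, and a probe set, the group of array oligonucleotides read out as 1 value, was called at a limma p-value below 0.05 after Benjamini-Hochberg adjustment over all 15866 probe sets together with a change of at least 1.5-fold.

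DMN is a nitrosamine that is harmless until the liver oxidises it. The P450 enzyme Cyp2e1, which sits mainly in hepatocytes around the central vein, removes a methyl group, and what is left breaks down to a species that methylates DNA. Methylated guanine is repaired by the suicide enzyme Mgmt, and persisting damage activates p53, which switches on cell cycle inhibitors such as Cdkn1a. Liver cells that die are cleared by macrophages, and lymphocytes and natural killer cells can release interferon gamma, the cytokine that induces guanylate-binding proteins, the immunoproteasome and the molecules that present antigen to T cells.

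At day 3 few genes were called, among them 3 p53 targets and 4 enzymes of foreign compound metabolism out of 16. In all, 21 probe sets were called (0.132% of those tested), 17 higher and 4 lower, while 1314 had an unadjusted p below 0.05. By day 7 there were 207 (1.3%), 151 higher and 56 lower, with genes of antigen processing, class II histocompatibility and macrophages added to the rises, and genes of pericentral hepatocytes making up part of the falls. Vehicle animals of day 7 against those of day 3 gave 0 called probe sets (0%) in limma, and 953 at an unadjusted p below 0.05. Counted as genes, with the brightest probe set standing for each of 10411 genes, 12 were called higher (0.115%) and 4 lower (0.0384%) at day 3, against 114 (1.09%) and 42 (0.403%) at day 7. These shares over all genes are the background for the counts of gene lists below. The median change over all genes was -0.001 at day 3 and 0.006 at day 7.

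**Figure D1:**
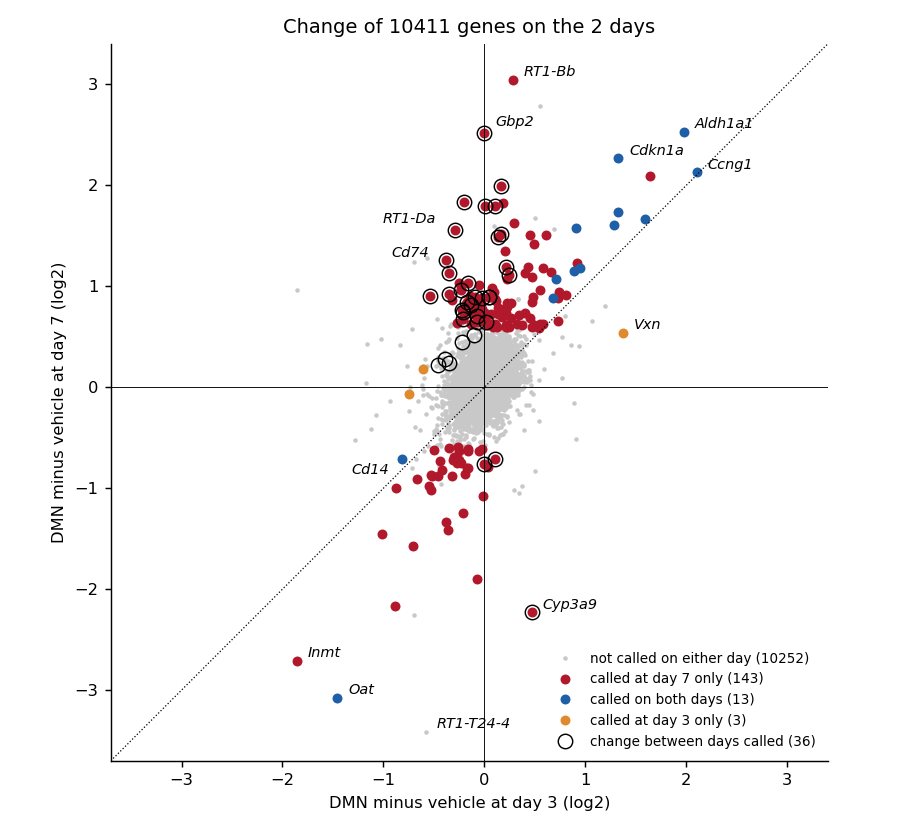
Change of each of 10411 genes (DMN minus vehicle, log2) at day 3 on the horizontal axis and at day 7 on the vertical axis, coloured by the day on which the gene was called, with a ring around the 36 genes whose change differed between the days. The 13 genes called on both days changed in the same direction on both, Oat from -1.46 to -3.08 and Ccng1 from 2.10 to 2.13. The 143 called at day 7 only include Gbp2, near 0 on the horizontal axis, and Rcan2, at -0.88 there. Of all 156 genes called at day 7, 121 had a day 3 change of the same sign.

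The day 3 calls rest on the variance pooled over the whole series. With only the DMN and vehicle arrays of day 3 in the fit, 2 probe sets were called at day 3, and Ccng1 was the only one of the 16 genes still called. Without DMN animal 3 of day 3 the count was 44. The day 7 count moved by less than 1.5 times with only the DMN and vehicle arrays of day 7 in the fit and with any array left out. Of the 16 genes called at day 3, 13 were also called at day 7 (81.2% of the day 3 genes and 8.33% of the day 7 genes), all in the same direction. Every one of the 16 genes had its 3 DMN arrays beyond the 3 vehicle arrays, as did 155 of the 156 genes at day 7 (the exception was Ifi27l2b), and the same held for 9.71% of all probe sets at day 3 and 21% at day 7. Hepatocyte markers, a list of 16 measured genes such as Alb and Ttr, had 0 members called on either day, and their mean level lay between 13.67 and 13.85 on each of the 12 arrays, so the samples were liver throughout.

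Among p53 targets, Ccng1, a cyclin of the damage response, was already at its full height on day 3. Its levels were 8.15, 8.04 and 8.16 in vehicle animals and 10.10, 10.63 and 9.93 in DMN animals at day 3, and 8.30, 8.13 and 8.25 against 10.46, 10.33 and 10.27 at day 7. The groups were far apart on both days, with changes of 2.10 ± 0.17 (4.3-fold, adjusted p = 2.03e-23 by limma) and 2.13 ± 0.17 (4.37-fold, adjusted p = 2.08e-24). The change between the days was 0.03 ± 0.25. None of the 128 vehicle arrays of the series reached the lowest DMN array of day 7, the highest of them standing at 8.74.

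Mdm2, the ligase that marks p53 for breakdown, gave 7.09, 7.14 and 7.30 in vehicle and 8.15, 9.18 and 8.06 in DMN animals at day 3, and 7.36, 7.09 and 7.03 against 9.11, 8.54 and 8.65 at day 7. The groups did not overlap on either day, and DMN animal 2 of day 3 stood about 1 unit above the other 2 animals of its group. The changes were 1.29 ± 0.19 and 1.61 ± 0.19. Cdkn1a, the inhibitor that stops the cell cycle, had a wider spread, with 9.18, 8.70 and 8.52 against 10.06, 10.45 and 9.88 at day 3 and 8.45, 8.71 and 9.19 against 11.39, 11.48 and 10.27 at day 7. Its changes were 1.32 ± 0.31 (adjusted p = 0.0199) and 2.27 ± 0.31 (4.81-fold, adjusted p = 2.5e-09), and DMN animal 3 of day 7 was the lowest of its group while still above every vehicle array. The apoptosis regulator Phlda3 stood 0.81 ± 0.22 above vehicle at day 3, which missed the threshold (adjusted p = 0.0709), and rose by 0.91 ± 0.22 at day 7.

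Over the list of p53 targets, 3 of 15 measured genes were called higher at day 3 and 4 at day 7, with none called lower. Among all genes 0.115% and 1.09% were called higher on these days. The list medians were 0.33 and 0.20. Other members stayed near the vehicle: at day 7 the damage sensor Ddb2 stood at -0.25, Sesn1 at -0.10, Gadd45a at 0.20, the death receptor Fas at 0.10 and Xpc, which recognises damaged bases, at 0.13, none of them called. Perp, a membrane protein of apoptosis, stood at 0.45 and missed the threshold (adjusted p = 0.0515), while its other probe set was called at 0.59. The dimmer probe sets of Mdm2 and Cdkn1a stood at 0.54 and 0.85 at day 3 and were not called there. Gdf15, a stress cytokine, rose by 0.68 ± 0.14 at day 3 and 0.88 ± 0.14 at day 7, with DMN animal 2 at 7.20 against 6.37 and 6.41 in the other DMN animals of day 3.

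DNA repair genes were counted as a list at the level of mRNA. Of 32 measured repair genes, 0 were called at day 3 and 1 at day 7. Among all genes 0.115% and 1.09% were called higher on these days. The called repair gene was Mgmt, the enzyme that takes the methyl group from guanine. Its levels were 8.40, 8.28 and 8.70 in vehicle and 8.89, 9.26 and 8.58 in DMN animals at day 3, where the groups overlapped, and 8.29, 8.40 and 8.49 against 10.19, 9.81 and 9.68 at day 7, where they did not. The changes were 0.45 ± 0.23 and 1.5 ± 0.23 (2.83-fold, adjusted p = 1.71e-07). The glycosylase Mpg, which also removes methylated bases, stood at -0.07 at day 7, and the demethylases Alkbh2 and Alkbh3 at 0.00 and 0.26. Nhej1, a factor of DNA end joining that was not on the repair list, rose on both days, by 0.71 ± 0.14 and 1.07 ± 0.14. Vehicle animals of the whole series reached at most 6.92 for Nhej1, below the 7.79, 7.39 and 7.81 of the DMN animals at day 7.

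**Figure D2:**
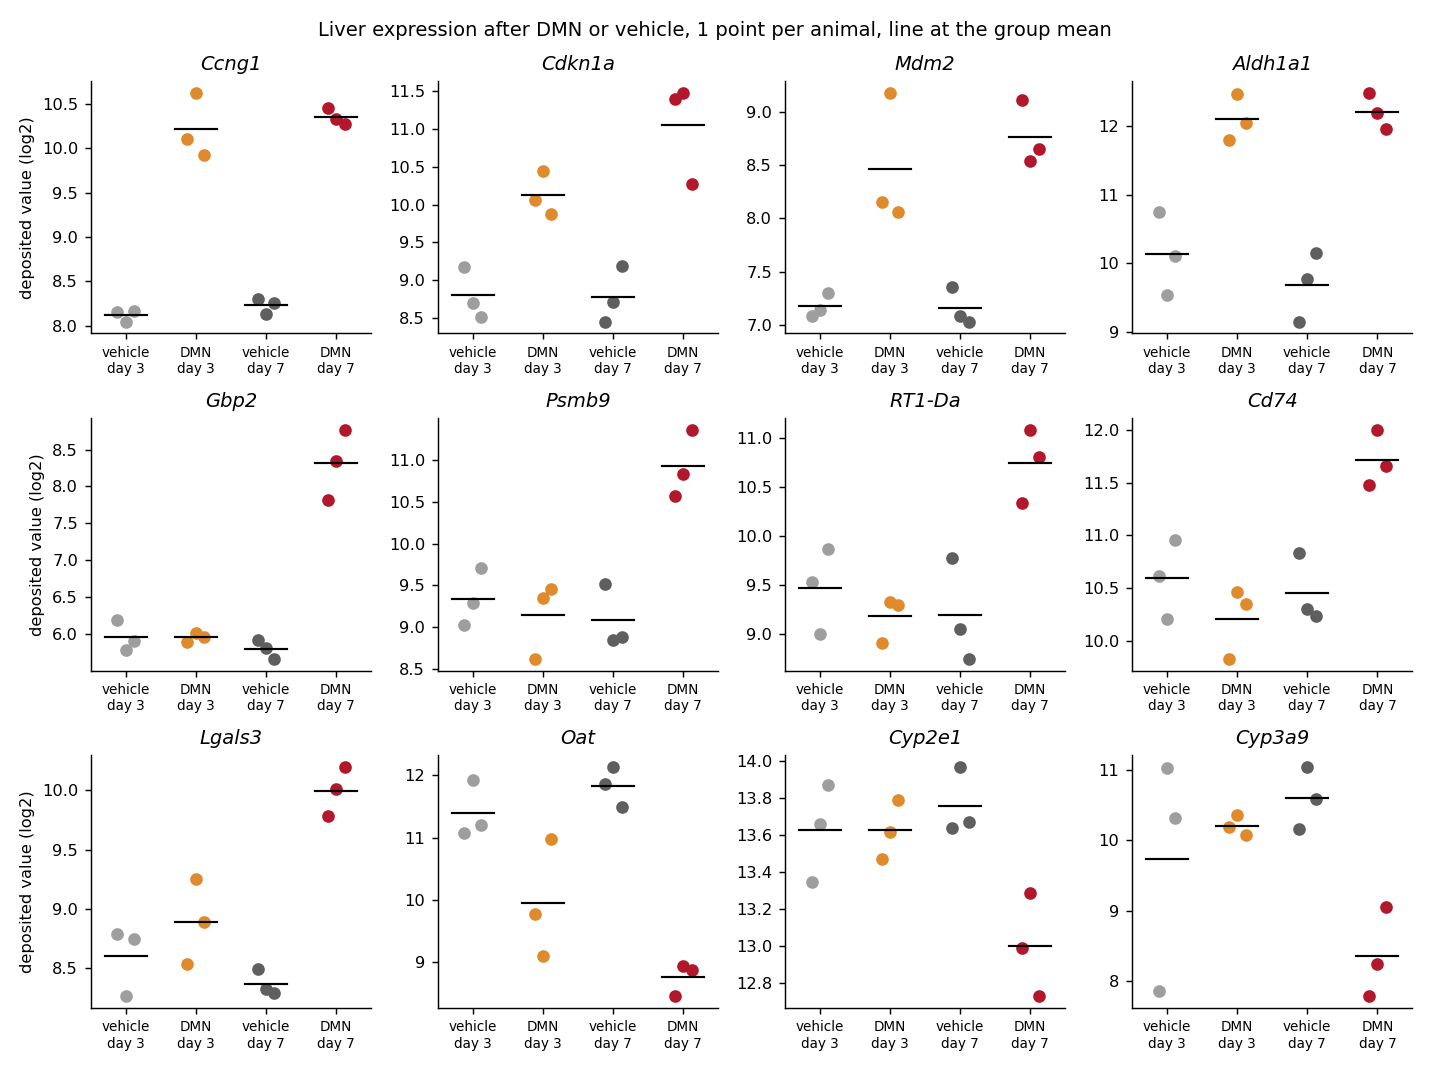
Deposited log2 value of 12 genes in each of the 12 animals, in 4 groups, with a line at each group mean. Ccng1, Cdkn1a, Mdm2 and Aldh1a1 stand above vehicle on both days, Gbp2, Psmb9, RT1-Da, Cd74 and Lgals3 at day 7 only, Oat lies below on both days, and Cyp2e1 and Cyp3a9 at day 7 only.

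Aldh1a1, Akr7a3, Ces2c and Ephx1, enzymes of foreign compound metabolism, rose on both days. Aldh1a1, an aldehyde dehydrogenase, measured 10.74, 9.53 and 10.11 in vehicle and 11.80, 12.47 and 12.04 in DMN animals at day 3, then 9.14, 9.77 and 10.14 against 12.49, 12.19 and 11.95. These values did not overlap on either day and gave changes of 1.98 ± 0.47 and 2.53 ± 0.47. Akr7a3, a reductase of toxic aldehydes, rose by 1.59 ± 0.32 and 1.67 ± 0.32, the carboxylesterase Ces2c by 1.32 ± 0.23 and 1.74 ± 0.23, and Ephx1, which hydrolyses epoxides, by 0.88 ± 0.17 and 1.15 ± 0.17. DMN animal 2 had the highest value of its day 3 group for all 4 genes, for instance 10.67 for Ces2c against 9.36 and 9.67. Without that animal Aldh1a1, Akr7a3 and Ces2c lost their day 3 call, while Ephx1, Mdm2, Ccng1 and Atp6v1d, a subunit of the proton pump of lysosomes (0.95 ± 0.14 and 1.18 ± 0.14), kept theirs with any array left out.

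These enzymes are shared between 2 lists, and 0.115% of all genes were called higher at day 3 and 1.09% at day 7. Of 26 measured targets of NRF2, the regulator of the antioxidant response, 3 rose at day 3 (Akr7a3, Ephx1 and Aldh1a1) and 4 at day 7, with Srxn1 added at 0.59, and of 21 targets of the drug receptors CAR and PXR, 3 rose at day 3, and 4 rose and 1 fell at day 7. The textbook NRF2 target Nqo1 stood at -0.60 and 0.09, Gclc at 0.00 and -0.23 and Hmox1 at -0.04 and 0.24, none called. The CAR and PXR targets Cyp3a2 (0.19 and -0.22), Cyp3a23-3a1 (0.22 and -0.30) and Cyp2c6v1 (0.11 and -0.27) were not called either. Called or not, 22 of 26 NRF2 targets lay above 0 at day 7 (median 0.29) and 17 of 21 CAR and PXR targets lay above 0 at day 3 (median 0.22). The mean level of the NRF2 list at day 7 was 9.65 to 9.90 in vehicle and 10.13 to 10.26 in DMN animals, and that of the CAR and PXR list at day 3 was 10.58 to 10.71 and 10.96 to 11.10, so the groups were separate in both. Aldh1a1 and Ephx1 are counted in both lists.

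Of the 16 genes of day 3, 3 were not called at day 7. Vxn measured 6.00, 6.10 and 6.03 in vehicle and 6.80, 8.22 and 7.23 in DMN animals at day 3, a rise of 1.38 ± 0.18, and stood 0.54 ± 0.18 above vehicle at day 7 (adjusted p = 0.062). Rpp21, a subunit of ribonuclease P, fell by 0.74 ± 0.14 at day 3 and stood at -0.07 at day 7, and Fabp12, a fatty acid binding protein, fell by 0.61 ± 0.15 and then stood at 0.18. The differences between the days were -0.84, 0.67 and 0.79 on the log2 scale and none of the 3 passed (adjusted p = 0.129, 0.11 and 0.0634). Cd14, the macrophage receptor for bacterial lipopolysaccharide, was lower on both days, at 10.67, 10.21 and 10.32 against 10.98, 11.43 and 11.25 and then 10.23, 10.13 and 9.99 against 10.97, 10.87 and 10.64 in vehicle. It fell by 0.82 ± 0.19 and 0.71 ± 0.19. The remaining gene called higher on both days, 4930522L14Rikl, rose by 0.91 ± 0.20 and 1.58 ± 0.20.

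**Figure D3:**
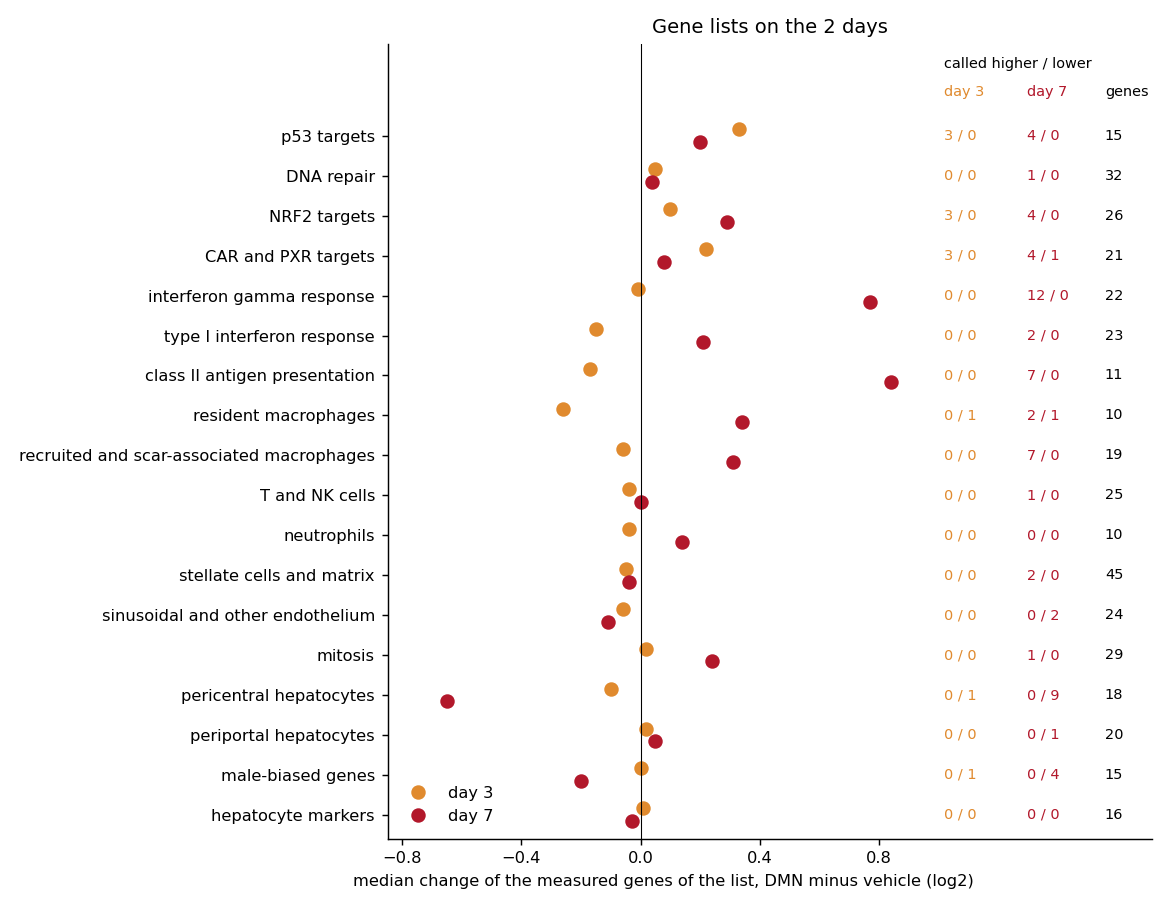
Median change (DMN minus vehicle, log2) of the measured genes of 18 lists at day 3 and day 7, with the numbers called higher and lower and the number of genes measured at the right. The interferon gamma list moved from -0.01 to 0.77, class II antigen presentation from -0.17 to 0.84 and pericentral hepatocytes from -0.10 to -0.65.

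Genes induced by interferon gamma were not called at day 3 and had the most calls of any list at day 7. Of 22 measured members, 0 were called at day 3 (median -0.01), and 12 rose and 0 fell at day 7 (median 0.77), where 1.09% of all genes were called higher. Gbp2, a guanylate-binding GTPase, stood in vehicle animals at 6.19, 5.78 and 5.91 at day 3 and 5.92, 5.81 and 5.66 at day 7. It measured 5.89, 6.02 and 5.96 in DMN animals at day 3 and 7.82, 8.35 and 8.77 at day 7. The day 3 groups overlapped with a difference of 0.00, and at day 7 the rise was 2.52 ± 0.19 (5.72-fold, adjusted p = 1.53e-27), with the highest of the 128 vehicle arrays of the series at 6.43.

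The immunoproteasome, the form of the proteasome that cuts peptides for presentation, rose with all its 3 catalytic subunits. Psmb9 measured 9.52, 8.85 and 8.88 in vehicle and 10.57, 10.83 and 11.36 in DMN animals at day 7, a rise of 1.83 ± 0.27. Psmb10 rose by 1.80 ± 0.18 (3.48-fold, adjusted p = 3.21e-17) and Psmb8 by 1.52 ± 0.23, each with no overlap between the groups and none of the 128 vehicle arrays at or above the lowest DMN array. At day 3 the same 3 subunits stood at -0.20, 0.01 and 0.17. The activator subunit Psme2 rose by 0.82 ± 0.10 at day 7, and its partner Psme1 stood at 0.51, past the p threshold (adjusted p = 3.4e-07) and short of 1.5-fold.

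Downstream of the proteasome, the peptide transporter genes Tap1 and Tap2 rose by 1.48 ± 0.17 and 0.84 ± 0.11, while tapasin (Tapbp) at 0.24 and the class I light chain B2m at 0.13 were not called. Tap1 has a further, dim probe set, which stood at -0.19. The transcription factors Irf1 and Irf8 rose by 1.01 ± 0.21 and 0.73 ± 0.18. Irf1 measured 9.08, 8.82 and 8.98 in vehicle and 9.92, 9.88 and 10.10 in DMN animals, while for Irf8 30 of the 128 vehicle arrays of the series reached the lowest DMN array. The chemokines Cxcl9 and Cxcl10, which draw T cells, rose by 1.99 ± 0.31 and 0.89 ± 0.17. Members of the list that stood near 0 at day 7 were the suppressor Socs1 (-0.21), Ido1 (-0.08), Ubd (-0.27) and Serping1 (0.03).

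Targets of type I interferon, the antiviral branch, were counted as a list of their own. Of 23 measured genes, 0 were called at day 3 (median -0.15) and 2 at day 7 (median 0.21), Ifi27l2b at 0.86 and Ifitm1 at 0.80 ± 0.24. The antiviral GTPase Mx1 stood at 0.08, Oas1a at 0.09, Ifit1 at -0.06, Ifit3 at 0.04, Rsad2 at -0.26 and Irf7 at 0.41, none called. Of the 23 genes 19 lay above 0 at day 7. The mean level of the list was then 8.23 to 8.47 in vehicle and 8.51 to 8.66 in DMN animals, without overlap. Vehicle animals of day 3 stood at 8.27 to 8.66, which overlaps the DMN animals of day 7. Of the 23 genes 18 were lower in vehicle animals of day 7 than of day 3 (median -0.13, 0 called). In the change between days 0 were called and 20 of the 23 lay above 0 (median 0.33). The mRNA of interferon gamma itself (Ifng) stood at -0.01 and -0.09.

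The promoters of these genes are shown because short motifs are known to bind the factors that interferons activate. The core of the interferon-stimulated response element (ISRE) has 2 copies of GAAA with any 2 bases between them, and CTGATTGG is the Y box of class II promoters. Windows from 250 bases before to 50 bases after the start of each gene were read from RefSeq (rat build GRCr8) and searched on both strands. The 150 bases before the start are printed 5′ to 3′ on the strand of the gene, with matches in capitals, and an ISRE core on the other strand reads as 2 copies of TTTC with 2 bases between them.
Gbp2 (chr2:234005577-234005726, plus strand): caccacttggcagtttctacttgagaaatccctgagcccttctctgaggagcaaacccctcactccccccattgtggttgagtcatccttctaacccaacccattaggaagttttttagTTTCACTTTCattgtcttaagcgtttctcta
Psmb10 (chr19:50743293-50743442, minus strand): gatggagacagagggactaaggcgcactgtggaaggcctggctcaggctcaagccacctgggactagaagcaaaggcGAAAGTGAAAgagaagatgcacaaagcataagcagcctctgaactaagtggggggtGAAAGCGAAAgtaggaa
Psme2 (chr15:33052752-33052901, minus strand): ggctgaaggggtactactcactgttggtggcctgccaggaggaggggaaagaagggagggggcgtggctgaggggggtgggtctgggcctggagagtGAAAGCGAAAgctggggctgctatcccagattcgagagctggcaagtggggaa
Tap1 (chr20:4668544-4668693, minus strand): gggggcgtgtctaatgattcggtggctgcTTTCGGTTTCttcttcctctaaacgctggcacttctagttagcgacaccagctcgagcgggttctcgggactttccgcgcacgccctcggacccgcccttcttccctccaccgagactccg
Tap2 (chr20:4652297-4652446, minus strand): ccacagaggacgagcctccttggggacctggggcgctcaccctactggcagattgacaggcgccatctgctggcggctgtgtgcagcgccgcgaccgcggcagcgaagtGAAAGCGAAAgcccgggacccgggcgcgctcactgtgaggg
RT1-Da (chr20:4515265-4515414, plus strand): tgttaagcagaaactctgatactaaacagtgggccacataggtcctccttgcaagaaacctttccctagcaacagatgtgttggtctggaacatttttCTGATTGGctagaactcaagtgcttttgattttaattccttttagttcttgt

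Of 20 promoters found for the interferon gamma list, 11 (55%) held the ISRE core, against 3.77% of all 27457 rat promoters and 2.86% of the 8610 found for genes on the array. Of 95 promoters found for genes called higher at day 7, 15 (15.8%) held it, among them Gbp2, Psmb8, Psmb10, Psme2, Tap1, Tap2, Cxcl10, Ctss and LOC100910973, and of 32 for genes called lower 1 did (3.12%). Type I targets, of which 2 were called, held it in 11 of 17 promoters (64.7%). Psmb10 holds 2 ISRE cores in the printed window. These are matches of letters and were not tested as binding sites.

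Class II antigen presentation followed the same days. Of 11 measured genes 0 were called at day 3 (median -0.17). At day 7, when 1.09% of all genes were called higher, 7 rose (median 0.84), with all 11 above 0. RT1-Da, the alpha chain of a class II molecule, measured 9.53, 9.0 and 9.87 in vehicle and 8.91, 9.33 and 9.29 in DMN animals at day 3, and 9.78, 9.05 and 8.74 against 10.34, 11.09 and 10.81 at day 7. Only at day 7 did the groups separate, by 1.55 ± 0.33 (2.94-fold, adjusted p = 0.00051), and 6 of the 128 vehicle arrays of the series reached the lowest DMN array.

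Cd74, the invariant chain that guides class II molecules, rose by 1.26 ± 0.29, from 10.83, 10.30 and 10.24 to 11.48, 12.00 and 11.66. The peptide exchange factors RT1-DMa and RT1-DMb rose by 0.84 ± 0.17 and 0.89 ± 0.16, RT1-Db1 by 0.98 ± 0.24 (with a dim probe set at 0.16), and Ctss, the protease that trims the invariant chain, by 0.82 ± 0.22. The master regulator Ciita stood at 0.18 and was not called. Of 9 class II promoters, 4 (44.4%) held CTGATTGG, those of RT1-Ba, RT1-Bb, RT1-Da and RT1-Db1, against 3.55% of all promoters. In whole tissue, more cells of a type and more RNA per cell cannot be told apart, and the same holds for fewer cells and less RNA.

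The RT1 genes are near-identical copies that differ between rats, and their probe sets did not move together. Read from the brightest probe set of each gene, RT1-Bb had the largest rise at day 7, from 6.56, 6.68 and 7.58 to 9.59, 10.38 and 9.99, or 3.05 ± 0.71, while its other probe set stood at -0.89 and was not called. In vehicle animals of day 3 RT1-Bb ranged from 6.78 to 8.97, and RT1-T24-4, a class I gene, from 5.96 to 10.37. RT1-T24-4 stood at -3.41 ± 1.24 at day 7, with 10.46, 9.52 and 9.21 in vehicle and 6.33, 6.68 and 5.96 in DMN animals, which missed the threshold (adjusted p = 0.0953) in spite of groups that did not overlap. The class I gene RT1-A fell by 1.25 ± 0.36, and RT1-CE5 rose by 1.19 ± 0.20, with 4 of its 5 probe sets called higher at day 7 and 1 already at day 3. The 3 dimmer ones of RT1-CE5 called at day 7 stood at 1.39, 2.72 and 3.46, the last of which exceeds the rise of RT1-Bb. Of 29 RT1 probe sets, 11 were called higher and 1 lower. The part of differences between single animals in these genes was not tested. Without all RT1 probe sets 195 probe sets were still called at day 7, with 2 of the class II list (Cd74 and Ctss) among the genes left.

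Part of the macrophage genes rose at day 7. Of 19 measured markers of recruited macrophages, 0 were called at day 3 (median -0.06) and 7 rose at day 7 (median 0.31), against 1.09% of all genes. Lgals3, galectin-3, measured 8.49, 8.32 and 8.29 in vehicle and 9.78, 10.01 and 10.20 in DMN animals, a rise of 1.63 ± 0.25, and Gpnmb, a glycoprotein of macrophages rich in lysosomes, rose by 1.82 ± 0.33. The actin regulators Coro1a and Capg rose by 1.12 ± 0.15 and 0.77 ± 0.15, the adaptors Tyrobp and Fcer1g by 0.74 ± 0.16 and 0.92 ± 0.21 and the filament protein Vim by 1.03 ± 0.24. Spp1 (-0.28), the chemokine receptor Ccr2 (-0.08) and Itgam (-0.10) were not called.

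Of 10 markers of resident macrophages, Cd68 and lysozyme (Lyz2) rose at day 7, by 1.04 ± 0.21 and 1.35 ± 0.32, and Cd14 fell as described above. The Kupffer cell receptor Clec4f stood at 0.23, Csf1r at 0.16 and the complement genes C1qa, C1qb and C1qc at 0.45, 0.61 and 0.63, all short of the threshold. Summed over the list, vehicle animals of day 7 had a mean level of 9.02 to 9.33 and DMN animals 9.45 to 9.60. For recruited markers the mean level was 8.30 to 8.52 in vehicle and 8.86 to 8.96 in DMN animals, so both lists separated the groups at day 7. For the resident list vehicle animals of day 3 stood at 9.29 to 9.58, which overlaps the DMN animals of day 7, and 9 of its 10 genes were lower in vehicle animals of day 7 than of day 3 (median -0.32, 0 called). Their part in the rises of class II and interferon genes was not tested.

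Lymphocyte and neutrophil markers were counted as lists. Of 25 measured genes of T and NK cells 0 were called at day 3 and 1 at day 7, when 1.09% of all genes were called higher. The called gene was the cytokine receptor chain Il2rg at 0.68 ± 0.12, and the list median at day 7 was 0.00. Cd3d stood at 0.00, Cd3e at -0.07, Cd8a at 0.02, the NK genes Nkg7 at 0.02 and Gzmm at -0.07 and the perforin gene Prf1 at -0.26. The mean level of the list was 6.39 to 6.61 in vehicle and 6.47 to 6.60 in DMN animals, so the groups overlapped. None of 10 neutrophil genes was called on either day (median 0.14 at day 7). Their mean level at day 7 was 5.99 to 6.27 in vehicle and 6.27 to 6.30 in DMN animals. Both lists lie at low signal, where the deposited values compress small differences, so a small rise could go unseen.

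Markers of matrix and of stellate cells, the cells that make scar tissue in the liver, were called in 2 of 45 cases at day 7 and in 0 at day 3. The share of all genes called higher at day 7 was 1.09%. Dcn, the proteoglycan decorin, rose by 1.42 ± 0.27, and Vim is shared with the macrophage list. Col1a1 stood at -0.20, Col1a2 at -0.34, Col3a1 at -0.61, smooth muscle actin Acta2 at 0.08, Tgfb1 at 0.48 and Timp1 at 0.87, none called, and the list median was -0.04. In endothelium 2 of 24 genes fell, the VEGF receptor Kdr by 0.79 ± 0.19 and the phosphatase Ptprb by 0.80 ± 0.17, with Pecam1 at -0.30, Stab1 at -0.28 and Lyve1 at 0.34 not called.

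Part of the genes of hepatocytes around the central vein fell at day 7. Of 18 measured pericentral genes 1 fell at day 3 (median -0.10) and 9 fell at day 7 (median -0.65), when all 18 lay below 0 and 0.403% of all genes were called lower. Oat, ornithine aminotransferase, had the largest fall of any called gene. It measured 11.08, 11.92 and 11.20 in vehicle and 9.77, 9.09 and 10.98 in DMN animals at day 3, where animal 3 was just below the vehicle group, and 11.87, 12.14 and 11.50 against 8.45, 8.93 and 8.88 at day 7. The changes were -1.46 ± 0.33 and -3.08 ± 0.33 (8.45-fold lower, adjusted p = 1.92e-14), and the lowest of the 128 vehicle arrays of the series stood at 11.06.

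Cyp2e1, the enzyme that activates DMN, measured 13.35, 13.66 and 13.87 in vehicle and 13.47, 13.62 and 13.79 in DMN animals at day 3, with full overlap. At day 7 it measured 13.64, 13.97 and 13.67 against 12.99, 13.29 and 12.73, and it fell by 0.76 ± 0.13 (1.69-fold, adjusted p = 3.12e-06). Cyp1a2, another P450 of the same zone, fell by 1.34 ± 0.26, the vasopressin receptor Avpr1a by 1.45 ± 0.30, the estrogen sulfotransferase Sult1e1 by 0.71 ± 0.13, the glutamate transporter Slc1a2 by 0.75 ± 0.19, Slc13a3 by 0.69 ± 0.16 and Rgn by 0.62 ± 0.17. The dimmer probe set of Slc1a2 stood at -0.04. Glul, glutamine synthetase, which is confined to the innermost ring of cells, was called lower in all 3 of its probe sets at day 7 (-0.88, -1.68 and -0.87). Of the Wnt targets and receptors on the list, Axin2, Lgr5 and Tbx3 were not called.

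**Figure D4:**
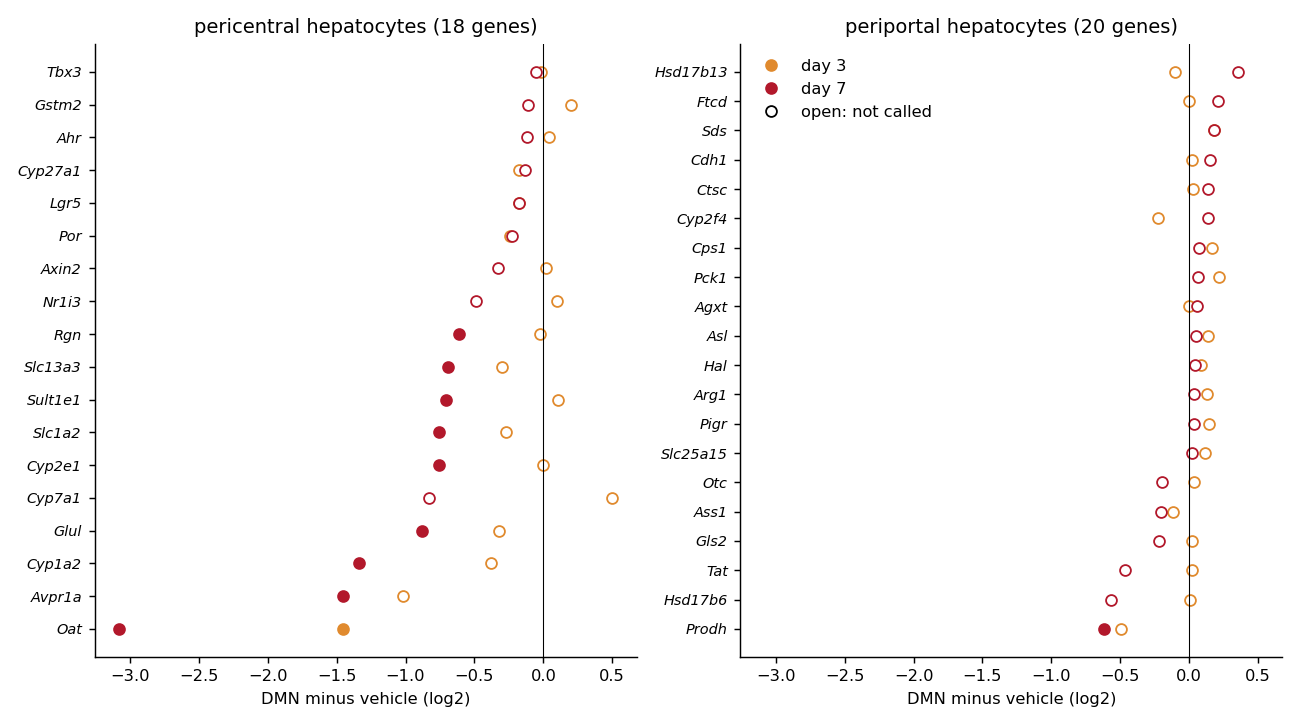
Change of each measured gene of the pericentral list (left, 18 genes) and the periportal list (right, 20 genes) at day 3 and day 7 (log2, filled where called). All pericentral genes lie below 0 at day 7, with Oat at -3.08, and the periportal genes lie around 0 with Prodh at -0.62 the only one called.

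Periportal genes, those of hepatocytes near the incoming blood, were counted the same way. None of 20 was called at day 3 and 1 at day 7, proline dehydrogenase (Prodh), which fell by 0.62 ± 0.20 in its brighter probe set and stood at 0.01 in the other, and the medians were 0.02 and 0.05. The mean level of the pericentral list was 10.11 to 10.26 in vehicle and 9.39 to 9.59 in DMN animals at day 7, while that of the periportal list was 11.48 to 11.65 and 11.48 to 11.58. The groups were separate for the pericentral list and overlapped for the periportal list. The urea cycle genes Cps1, Arg1 and Ass1 stood at 0.07, 0.04 and -0.20.

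Genes of P450 enzymes and DMN metabolism were counted as a list of 29. At day 7, 1 rose and 3 fell, Cyp2e1 among them. Among all genes 1.09% were called higher and 0.403% lower on that day. Cyp2c12, which female rats express more, rose by 2.09 ± 0.48, from 9.81, 8.45 and 8.51 to 10.77, 11.32 and 10.95. Cyp3a9 fell by 2.23 ± 0.45, from 10.16, 11.04 and 10.58 to 7.79, 8.24 and 9.06, while the vehicle animals of day 3 ranged from 7.87 to 11.02. Fmo1, a flavin monooxygenase, fell by 1.01 ± 0.27, and lost its call when the fit held only the DMN and vehicle arrays of day 7. Of 15 male-biased genes 4 fell at day 7, Oat, Sult1e1, the reductase Akr1c1 (2.17 ± 0.36 lower) and the lipocalin Obp3, which fell by 1.90 ± 0.50. Cyp2c11, the main male P450, stood at -0.22 and Cyp2c13 at -0.04, neither called. Called or not, 14 of the 15 male-biased genes lay below 0 at day 7 (median -0.20). The mean level of that list was 12.34 to 12.55 in vehicle and 11.75 to 11.94 in DMN animals, without overlap. Of 12 female-biased genes 1 rose (Cyp2c12) and 1 fell (Cyp3a9).

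Among methyltransferases and enzymes of the methionine cycle, 2 of 20 fell at day 7, when 0.403% of all genes were called lower. Inmt, which methylates indolethylamines, measured 9.28, 11.19 and 10.35 in vehicle and 8.05, 8.04 and 9.17 in DMN animals at day 3 and 9.95, 10.17 and 10.66 against 7.45, 7.97 and 7.24 at day 7. The groups did not overlap on either day, but with vehicle animals spread over almost 2 units at day 3 the change of -1.86 ± 0.51 missed the threshold (adjusted p = 0.0676), and at day 7 it was -2.71 ± 0.51 (6.55-fold lower, adjusted p = 3.49e-05). Cystathionine beta-synthase (Cbs) fell by 0.80 ± 0.16. Further falls at day 7 were Igfbp3, a carrier of growth factors (1.57 ± 0.22 lower), the alarmin Il33, which fell by 1.41 ± 0.27, the sulfate transporter Slc13a4 by 1.08 ± 0.27, Rcan2 by 1.00 ± 0.31, AKR1C3l1 by 0.98 ± 0.29 and the matrix protein Mgp by 0.91 ± 0.24. RT1-A, Obp3, Fmo1, Slc13a4, Rcan2, AKR1C3l1 and Mgp lost their call when 1 array or another was left out.

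Of 39 targets of PPARA, the receptor that drives fatty acid oxidation, 2 fell at day 7, the fatty acid hydroxylase Cyp4a1 by 0.88 ± 0.23 and the peroxisome protein Pex11a by 0.63 ± 0.20, with the dimmer probe set of Pex11a at -0.36 and not called. The list median was 0.12 at day 3 and -0.08 at day 7, and 35 of the 39 lay below 0 in the change between days (median -0.20), with 0 called. Of 23 genes of bile acid synthesis and transport, the racemase Amacr fell by 0.75 ± 0.23 and the export pump Abcc2, also a CAR and PXR target, rose by 0.63 ± 0.20.

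Cell cycle genes were counted as lists. Of 29 mitosis genes, 0 were called at day 3 (median 0.02) and 1 at day 7, Cks2 at 0.74 ± 0.22. Among all genes 1.09% were called higher at day 7. Called or not, 28 of the 29 mitosis genes lay above 0 at day 7 with a median of 0.24. Ccnb1 stood at 0.65, Cdk1 at 0.42 and Mki67 at 0.39. The mean level of the mitosis list at day 7 was 6.84 to 6.98 in vehicle and 7.22 to 7.24 in DMN animals, without overlap. Vehicle animals of day 3 stood at 6.61 to 7.02. Of 25 genes of DNA replication 1 rose at day 7, the dUTPase gene Dut, by 0.71 ± 0.18. Red cell genes stood low without a call (9 genes, median -0.29, all below 0).

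The difference between the days was tested directly as the day 7 change minus the day 3 change, and 44 probe sets passed (0.277%), 39 higher and 5 lower, with 1224 at an unadjusted p below 0.05. As genes these were 33 higher (0.317%) and 3 lower (0.0288%). The rises were led by Gbp2 (2.52 ± 0.27, adjusted p = 2.99e-14), Psmb9 (2.03 ± 0.38), RT1-Da (1.85 ± 0.47), Cxcl9 (1.83 ± 0.44), Psmb10 (1.79 ± 0.25), Plac8, a small cysteine-rich protein of immune cells (1.68 ± 0.35), Cd74 (1.64 ± 0.41), LOC100910973 (1.48 ± 0.26), Ly6e (1.45 ± 0.32) and Psmb8 (1.35 ± 0.32). The 3 that fell were Cyp3a9 (-2.70 ± 0.64), Sult1e1 (-0.81 ± 0.19) and Cyp2e1 (-0.76 ± 0.18). Of the interferon gamma list 9 of 22 genes had a larger change at day 7, of class II 4 of 11, of recruited macrophages 3 of 19 (Tyrobp, Fcer1g and Coro1a), and of pericentral genes 2 of 18 a lower one. Glul was called lower in this test in 1 of its 3 probe sets (-1.18), which is not the brightest.

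None of the 16 genes called at day 3 was among them. The p53 list had 0 members called in this test, with Ccng1 at 0.03 ± 0.25, Mdm2 at 0.32 ± 0.26 and Cdkn1a at 0.94 ± 0.44 (adjusted p = 0.588), a wide error that does not show that Cdkn1a kept its level. Oat stood at -1.62 ± 0.47 (adjusted p = 0.103). Of the 156 genes called at day 7, 31 were called in the change between days, and 121 had a day 3 change of the same sign. Across 10411 genes, which are not independent, the changes of both days had a Pearson correlation of 0.365.

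The count depended on the fit and on single arrays. With only the 12 DMN and vehicle arrays of both days in the fit 11 probe sets passed, and Gbp2, Psmb10 and LOC100910973 were the only named genes still called. Without DMN animal 2 of day 3 there were 114, without vehicle animal 1 of day 7 there were 77, and without vehicle animal 2 of day 7, DMN animal 1 of day 3, vehicle animals 1 and 3 of day 3, vehicle animal 3 of day 7 or DMN animals 2 and 3 of day 7 there were 16, 17, 22, 25, 22, 27 and 22. Gbp2, Psmb9, Psmb10 and LOC100910973 were called with any array left out. With 1 array left out the interferon gamma list had 5 to 12 genes called, the class II list 0 to 5, recruited macrophages 0 to 6 and pericentral genes 0 to 3. With only the 12 arrays in the fit these counts were 4 for the interferon gamma list and 0 for the other 3 lists. Levels in DMN animals of day 3 lay within the range of the vehicle animals of that day for Gbp2 (5.89 to 6.02) and Cxcl9 (7.95 to 8.60, against 7.58 to 8.51, with animal 3 just above).

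At day 7 DMN was also set against 3 other compounds of the series that damage DNA. C.I Direct Black (CIDB, 146 mg/kg) and 2-Nitrofluorene (2-NF, 44 mg/kg) share the CO_1C vehicle arrays with DMN, so the treated animals were compared directly. N-Nitrososmorpholine (NNM, 3.5 mg/kg), a nitrosamine like DMN, was given in carboxymethylcellulose and has 6 other vehicle arrays. The change of NNM from its own vehicle was therefore subtracted from that of DMN. Doses differ between the compounds and were not matched for effect. In total 588 probe sets differed between DMN and CIDB (3.71%), 314 higher and 274 lower after DMN, 82 between DMN and 2-NF (0.517%), 53 higher and 29 lower, and 85 between the effects of DMN and NNM (0.536%), 42 higher and 43 lower. Without vehicle animal 2 of day 7 the last count was 56. As genes, 2.38% of those tested were higher and 1.63% lower after DMN than after CIDB, 0.403% and 0.192% against 2-NF, and 0.298% and 0.307% against NNM.

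Part of the interferon gamma genes stood higher after DMN than after each of the other compounds. Gbp2 lay between 5.79 and 5.84 in CIDB animals, 5.73 and 6.00 in 2-NF animals and 5.82 and 6.16 in NNM animals, all far below the 7.82 to 8.77 of DMN animals, and the differences were 2.50 (95% interval 2.13 to 2.87), 2.45 (2.07 to 2.82) and 2.35 (1.85 to 2.84). Of the 22 genes of the list 11, 11 and 8 were higher after DMN than after CIDB, 2-NF and NNM, with 0, 0 and 1 lower, and medians of 0.62, 0.52 and 0.52. Psmb10 differed by 1.76, 1.49 and 1.89, Psmb8 by 1.37, 1.29 and 1.70, Psmb9 by 1.93, 1.67 and 1.40, Tap1 by 0.99, 1.21 and 1.56 and Cxcl9 by 2.17, 1.91 and 2.00, all called. Plac8 did the same at 1.57, 1.58 and 1.55.

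Of the 11 class II genes, 5, 2 and 1 were called higher after DMN than after CIDB, 2-NF and NNM, and of the 19 genes of recruited macrophages 6, 5 and 1. Whether these counts differ was not tested, and the comparison with NNM has the larger error, 0.44 for RT1-Da against 0.33 in the others. RT1-Da was higher by 1.07 than after CIDB, while the differences of 1.09 from 2-NF (adjusted p = 0.0756) and 0.45 from NNM (interval -0.41 to 1.31) did not pass, and Cd74 stood at 1.12, 0.86 and 0.19 (-0.57 to 0.95), the first of these called. NNM animals had Cd74 at 11.28 to 11.56, close to the 11.48 to 12.00 of DMN animals. Gpnmb was higher by 1.60 than after 2-NF and stood at 0.82 against CIDB and 0.11 (-0.74 to 0.96) against NNM, neither called, and Lgals3 was higher than after CIDB (0.98) and 2-NF (1.16), with 0.49 (-0.17 to 1.15) against NNM.

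Of the 15 p53 targets 6 were called lower after DMN than after CIDB, 1 was called higher (Xpc, 0.75) and 8 did not pass. Mdm2 was lower after DMN than after CIDB by a difference of -1.83 (-2.2 to -1.47), Cdkn1a by -1.73, Ccng1 by -1.23 and Phlda3 by -1.13. Against 2-NF and NNM 0 of 15 were called, with Mdm2 at -0.09 (-0.45 to 0.28) and -0.19 (-0.67 to 0.29), so for Mdm2 a difference of 1 in either direction lies outside both intervals. Against 2-NF 14 of the 15 targets lay below 0 (median -0.11), with Ccng1 at -0.49 (-0.83 to -0.15, adjusted p = 0.191). Some intervals were wider, as for Gadd45a (-0.50 to 1.25 against 2-NF and -1.75 to 0.57 against NNM) and Plk2 (-1.43 to 0.04 against NNM). Mgmt stood at -0.53 (-0.98 to -0.07), 0.13 (-0.33 to 0.58) and 0.97 (0.37 to 1.57), none called after adjustment. CIDB animals spread from 9.60 to 11.41 for Mgmt, around the 9.68 to 10.19 of DMN animals.

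Pericentral genes were lower after DMN than after CIDB in 7 of 18 cases and higher in 1, lower than after 2-NF in 3 and than after NNM in 1, with medians of -0.57, -0.35 and -0.42. The gene called in all 3 comparisons was Cyp2e1, with differences of -1.34 (-1.59 to -1.09), -0.80 (-1.05 to -0.55) and -0.61 (-0.94 to -0.28). Oat differed by -2.41 from CIDB and -1.50 from 2-NF, and by -0.62 (-1.48 to 0.25) from NNM, where Oat stood at 9.81 to 10.02 in treated animals and 12.13 to 12.64 in their vehicle. Inmt differed by -2.06 from CIDB and -1.96 from 2-NF, and by 0.46 (-0.85 to 1.78) from NNM, which did not pass. Igfbp3 was lower after DMN in all 3 comparisons, at -1.25, -1.32 and -1.40.

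The largest differences from the other compounds also included genes that were not called for DMN against vehicle. Against CIDB these were the higher Scd, Hbb, Ifgga2l1 and Apoa4, whose DMN changes from vehicle at day 7 were 1.28, -0.43, 0.96 and 0.03, and the lower Gsta3 (1.56) and Igfbp1 (0.29), while Ifrd1, also lower than after CIDB, rose after DMN by 1.14 ± 0.29. Against 2-NF Gsta3 was again lower, as was Cyp1a2. Against NNM the lower genes were Ugt2b7 and Mmp12, which stood at 0.08 and -0.04 from vehicle after DMN, and RT1-T24-4, RT1-A and Mgp. Of the 29 mitosis genes 12 were higher after DMN than after CIDB, 1 than after 2-NF and 0 than after NNM, with medians of 0.44, 0.34 and 0.17. The mean level of this list was 6.56 to 6.63 in CIDB animals, below the 6.84 to 6.98 of the shared vehicle, and 7.22 to 7.24 in DMN animals. Of the 45 stellate and matrix genes 9 were lower after DMN than after NNM, with a median of -0.29. Their mean level was 8.26 to 8.32 in NNM animals and 7.90 to 7.96 in the NNM vehicle. It was 7.91 in DMN animals and 7.83 to 7.97 in the DMN vehicle of day 7. Of the 156 genes called for DMN at day 7, 79 were also called in the comparison with CIDB, 41 with 2-NF and 28 with NNM.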

How the data were processed

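Livers were profiled with 1 Affymetrix RAE230A array per animal. The values deposited by the authors are on a log2 scale and come from RMA (robust multi-chip averaging, affy package), which subtracts background, normalizes between arrays and condenses each probe set to 1 value. The version of RMA, and whether all 421 arrays were normalized together, are not given in the sources used here. Such values compress small differences at low signal. Array medians lay between 7.38 and 7.49, and the number of arrays limits the precision.

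Groups, doses and days were taken from the labels. Gene names came from the platform's annotation with symbols updated through gene identifiers (12783 probe sets with 1 symbol, 312 with several, 2771 not listed), and a gene with several probe sets was read from its brightest. A linear model with 1 mean per group was fitted over all 421 arrays in limma 3.58.1 (R 4.3.3; 285 residual and 4.67 prior degrees of freedom), so the SE is that of the variance shared by all groups. For each day the 15 largest rises and falls among called genes with no overlap between the groups were named, for the change between days the 10 largest, and for each other compound the 5 largest, besides members of the gene lists. The gene lists, the members and the comparisons were chosen with earlier results of these data known, and lists were described by counts and medians without a test. Gene lists with 0 or 1 called member at day 7 that are not described above covered B cells, bile duct cells, pancreas, adipose and muscle, acute phase proteins, complement, chemokines, stress responses, immediate early genes, D cyclins, AHR targets, lipid synthesis, hepatocyte transcription factors and the circadian clock, with medians between -0.09 and 0.13.

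On simulated data for day 3, day 7 and the change between days, 99, 98 and 90 of 100 probe sets changed 2-fold were recovered, and 1, 2 and 3 unchanged probe sets of 15866 were called. The simulated noise was independent and normal, with the same spread in all groups, as the model assumes. It therefore cannot show how far calls depend on that shared variance. Same-numbered arrays did not deviate together (correlations of -0.247 to 0.118), so replicate numbers were not taken as pairs. Other settings tried were a fit without the uncompared groups, a trend of the variance with intensity, renewed quantile normalization, a minimum mean of 6, other fold limits, the replicate number as a block, all 6 vehicle arrays as 1 group, the mean over the probe sets of a gene and each array left out. Leaving out the RT1 probe sets was chosen after seeing the data. Promoters came from a RefSeq table of build GRCr8, and 1 of the motifs searched is not reported here. Figures were drawn in Python 3.11.15 with matplotlib 3.10.9.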

Additional observations from a re-analysis of the deposited data

Results flagged for a closer look

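The effect of DMN differed between the days, by the test of the difference itself (day 7 change minus day 3 change, limma, adjusted over all probe sets), for 13 of the named genes. The effect was higher at day 7 for Gbp2 by 2.52, Psmb9 by 2.03, RT1-Da by 1.85, Cxcl9 by 1.83, Psmb10 by 1.79, Plac8 by 1.68, Cd74 by 1.64, LOC100910973 by 1.48, Ly6e by 1.45 and Psmb8 by 1.35 on the log2 scale. It was lower at day 7 for Cyp3a9 by a difference of -2.70, Sult1e1 by -0.81 and Cyp2e1 by -0.76. For Cyp3a9 vehicle animal 1 of day 3 stood at 7.87 against 11.02 and 10.32 in the other vehicle animals of that day. For Cyp2e1 and Sult1e1 the day 3 changes were 0.00 and 0.10. Groups of 3 arrays were not searched for single outlying animals.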

How the results depend on the processing

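The counts of called probe sets were 21 at day 3, 207 at day 7, 44 for the change between days, 0 between the vehicle days, and 588, 82 and 85 against CIDB, 2-NF and NNM. With only the compared groups in the fit they were 2 at day 3 and 11 for the change between days. Without a minimum fold they were 43, 700, 2256, 193 and 134 at day 3, at day 7 and against CIDB, 2-NF and NNM, and at 2-fold 12, 69, 21, 187, 31 and 36 with the change between days as the third. All 6 vehicle arrays as 1 group gave 37 at day 3, and renewed quantile normalization and a minimum mean of 6 each gave 1 between the vehicle days. With 1 array left out the counts ranged from 14 to 44 at day 3, 141 to 249 at day 7, 16 to 114 for the change between days, 0 to 3 between the vehicle days, and 554 to 608, 56 to 112 and 56 to 97 against CIDB, 2-NF and NNM. The arrays that moved a count by over 1.5 times are named in the report, except vehicle animal 1 of day 7, without which 3 probe sets differed between the vehicle days. The causes were not tested.

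With the replicate number as a block 2 probe sets were called at day 3, 159 at day 7 and 0 for the change between days. Under the block Ccng1 was the only named gene of day 3 still called, Cyp2c12 and Cyp3a9 lost their day 7 call, and all 13 named genes of the change between days lost theirs. Numbers were no pairs: 0 of 6 arrays at day 3 and 2 of 6 at day 7 correlated best with their own number. Of 1195 recomputed values of named genes 1019 kept direction and call, 176 kept direction only and 0 changed sign. Of the named genes, 5 of 16 at day 3, 23 of 30 at day 7 and 4 of 13 for the change between days were called with any array left out. Without RT1 probe sets the class II list had 2 genes called at day 7 and 1 in the change between days.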
